A study of Mus musculus with 2 samples.

Results

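Transcript levels of 9 transcription factors that set cortical identity and cortical areas (Pax6, Emx1, Emx2, Lhx2, Nr2f1, Nr2f2, Sp8, Dmrta1 and Dmrta2) were examined in RNA sequencing of 2 cell populations sorted from mouse cortex at embryonic day 15.5. The members were taken by gene symbol, and each of the 9 had 1 row among the 20373 genes listed for each population. Embryos came from heterozygous Nestin-GFP mice crossed to homozygous DCX-mRFP mice, and cortices were taken from embryos positive for both reporters. Cells sorted by the green colour were labelled neural progenitor cells (NPCs) and cells with both colours were labelled neurons. Nestin is an intermediate filament of progenitors that blood vessel cells can also make, and doublecortin is a microtubule protein of young neurons. There was 1 library per population, with 26346226 reads on listed genes for NPCs and 23312054 for neurons. How many embryos went into each library is not stated in the labels. With 1 library each, no difference below has a replicate check and no p-value was computed. The series relates NPC and neuron transcriptomes to polymerase pausing and bivalent histone marks. Those assays were not analysed here.

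These factors bind DNA and act in the dividing cells of the cortical wall as graded or selector signals. Lhx2, a LIM-homeodomain protein, commits the neuroepithelium to cortex rather than to the signalling centres at its edges. Pax6, with a paired domain and a homeodomain, is enriched rostrally and laterally, whereas the homeodomain protein Emx2, the DM-domain protein Dmrta2 and the nuclear receptor Nr2f1 are enriched caudally, and the zinc finger protein Sp8 rostrally and medially. Signalling centres at the cortical edges, which secrete FGF, Wnt and BMP proteins, set these gradients, and the factors in turn repress or restrain one another.

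As reference for the genomic setting, the 250 bases before the annotated start of each of the 9 genes were read from RefSeq (GRCm38.p6, which is not the mm9 build named for the expression values), using the start farthest upstream where the table gave several. Both strands were searched for GGGCGG (the GC box bound by Sp-family zinc fingers), TAATTA (a homeodomain core), AGGTCA (a nuclear receptor half-site, as for the Nr2f proteins) and TATAAA (the letters of the core promoter box of that name), none of which contains another. A match is a description and not a site. GGGCGG was found in 5 of 9 windows against 33% of 27018 promoter windows, and TATAAA in 1 of 9, Sp8, against 13%. TAATTA (4.91% of all windows) and AGGTCA (13.8%) were in 0 of 9. Shown here are Pax6 and Dmrta1, which had the largest NPC to neuron ratios of the set, Lhx2, which had the highest level, and Nr2f2, the single member higher in the neuron library. None of these 4 windows overlaps an annotated exon of its own gene (GENCODE M21), whereas those of Emx1, Emx2 and Nr2f1, 3 of the 5 with GGGCGG, lie over such exons for all 250 bases. Capitals mark GGGCGG or its reverse complement CCGCCC.
Pax6, chr2:105668646-105668895, plus strand: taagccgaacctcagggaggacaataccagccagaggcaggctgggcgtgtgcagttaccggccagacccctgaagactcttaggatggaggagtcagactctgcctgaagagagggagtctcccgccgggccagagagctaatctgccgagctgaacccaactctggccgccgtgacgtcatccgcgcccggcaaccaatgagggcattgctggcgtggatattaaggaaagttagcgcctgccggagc
Dmrta1, chr4:89687948-89688197, plus strand: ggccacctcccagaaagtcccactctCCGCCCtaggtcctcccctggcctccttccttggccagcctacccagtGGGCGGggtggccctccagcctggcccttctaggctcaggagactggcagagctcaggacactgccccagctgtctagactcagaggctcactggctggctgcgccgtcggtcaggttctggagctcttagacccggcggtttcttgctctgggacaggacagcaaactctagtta
Lhx2, chr2:38339031-38339280, plus strand: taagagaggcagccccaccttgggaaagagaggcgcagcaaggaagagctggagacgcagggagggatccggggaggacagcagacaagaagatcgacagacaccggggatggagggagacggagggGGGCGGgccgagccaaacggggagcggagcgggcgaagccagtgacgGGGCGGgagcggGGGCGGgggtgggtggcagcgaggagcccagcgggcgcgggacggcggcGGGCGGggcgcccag
Nr2f2, chr7:70366747-70366996, minus strand: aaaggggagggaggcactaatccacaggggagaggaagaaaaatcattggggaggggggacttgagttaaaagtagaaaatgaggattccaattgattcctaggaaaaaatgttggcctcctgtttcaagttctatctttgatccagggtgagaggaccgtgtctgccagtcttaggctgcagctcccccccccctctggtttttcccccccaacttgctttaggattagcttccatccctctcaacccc
Lhx2 held 4 matches, at 123, 76, 64 and 15 bases before the start, and Dmrta1 held 2, at 224 and 176. The windows of Pax6 and Nr2f2 held none of the 4 searched motifs. The count of CG dinucleotides was 25 for Lhx2, 15 for Pax6, 7 for Dmrta1 and 1 for Nr2f2, against a median of 6 over all windows (5th to 95th percentile 0 to 30). Among the members not shown, the counts were 30 for Emx1, 24 for Emx2, 22 for Nr2f1, 19 for Dmrta2 and 1 for Sp8. The CG-poor windows thus belonged to Nr2f2 and Sp8, which lay on opposite sides of equality in level. The table gave 3 windows for Sp8, 2 each for Pax6, Lhx2 and Nr2f1 and 1 for each other member, and which start these cells use was not measured.

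Of the 9 selector and areal factors, 8 had lower levels in the neuron library, by very unequal ratios, and Nr2f2 had a higher one. Levels are in counts per 1000000 reads (CPM), computed with the authors' scaling between the libraries kept. All 9 members passed the filter (1 CPM or more in either library), 8 of 9 were higher in NPCs, against 50.7% of the 12693 genes past the filter, and 1, Nr2f2, was higher in neurons. With 1 CPM added to both values, 4 of 9 (Pax6, Emx2, Dmrta1 and Dmrta2) were at least 2-fold higher in NPCs, a threshold reached by 6.73% of all those genes. None of the 9 was at least 2-fold higher in neurons, a threshold reached by 3.85%. On that scale the log2 ratio (neuron over NPC) had a median of -0.80 over the 9 members and of -0.0049 over all genes past the filter. When 5 CPM was added instead, 2 members (Pax6 and Dmrta2) reached 2-fold, against 3.14% of all genes. For 8 members the 95% counting interval of the ratio lay wholly on the NPC side, and for Nr2f2 on the neuron side. At this depth 34.6% of all genes past the filter lay wholly on the NPC side and 33.6% on the neuron side. Intervals throughout are exact, cover counting error only, and treat reads as independent molecules, which reads without molecular identifiers are not. In bulk samples, fewer cells of a type and less RNA per cell cannot be told apart.

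**Figure D1:**
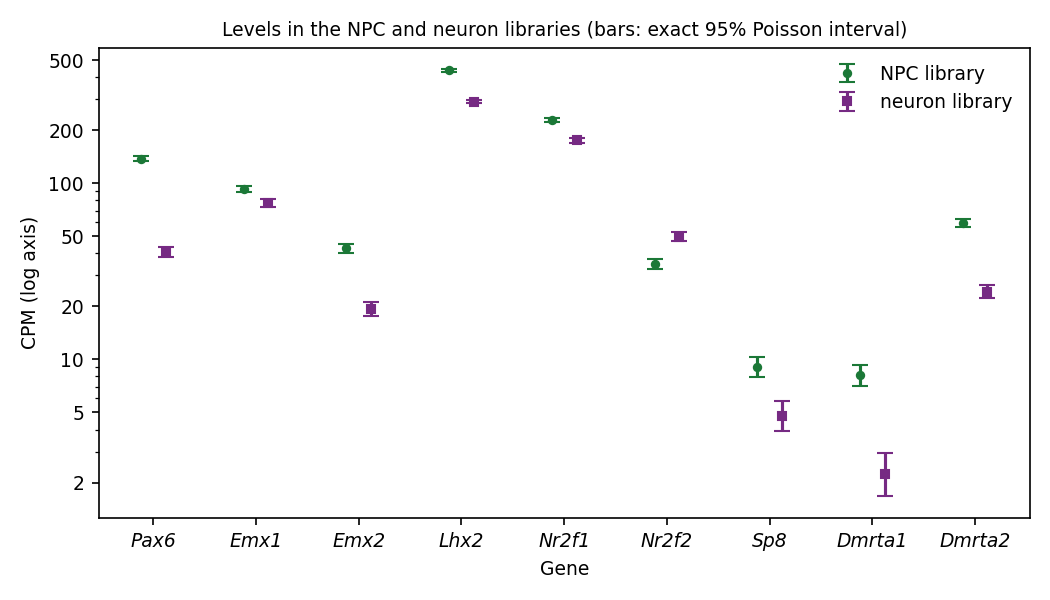
CPM (log axis) of each of the 9 factors in the NPC library (circles) and the neuron library (squares), with exact 95% Poisson intervals. The square lies below the circle for 8 genes and above it for Nr2f2 (34.7 CPM in NPCs and 49.6 in neurons), and the widest gaps are those of Pax6 and Dmrta1.

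Pax6, needed for radial glial identity and for cortical neurogenesis, was at 138 CPM in the NPC library (95% Poisson interval 133 to 142, 3710 reads) and 40.7 CPM in the neuron library (38.2 to 43.4, 928 reads). It was 3.38-fold higher in NPCs (3.14 to 3.63), and 1.17% of genes past the filter had a lower log2 ratio of neuron to NPC. Pax6 was thus the member closest to the NPC extreme on the scale with 1 CPM added.

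Lhx2 had the highest level of the set in both libraries, also per kilobase of transcript (given further on). It reached 437 CPM in NPCs (429 to 445, 11781 reads) and 291 CPM in neurons (284 to 298, 6632 reads), 1.500-fold higher in NPCs (1.46 to 1.55). Its ratio therefore did not approach that of Pax6, although both genes are active across the cortical progenitor layer. The neuron library kept 66.6% of the NPC level of Lhx2 and 29.6% of that of Pax6.

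The Emx genes, vertebrate relatives of the fly empty spiracles gene, differed from each other. Emx2, a factor of caudal and medial cortex, was at 42.7 CPM in NPCs (40.3 to 45.3, 1153 reads) and 19.4 CPM in neurons (17.6 to 21.3, 441 reads), 2.21-fold higher in NPCs (1.98 to 2.47). Emx1, which marks the lineage of cortical excitatory neurons and is known to stay on in many of them, was at 92.9 CPM in NPCs (89.3 to 96.7, 2507 reads) and 77.3 CPM in neurons (73.8 to 81.0, 1762 reads). It was 1.202-fold higher in NPCs (1.13 to 1.28), the smallest difference in the set. Emx1 lay inside the bulk of genes, since 25.0% of genes past the filter had a lower log2 ratio. That share was 18.9% for Nr2f1, 13.1% for Lhx2, 9.24% for Sp8 and 5.60% for Emx2. These genes and Nr2f2 also lay within the 5th to 95th percentile of all genes (-1.17 to 0.90).

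The orphan nuclear receptors Nr2f1 and Nr2f2 (COUP-TFI and COUP-TFII) went in opposite directions. Nr2f1, which promotes caudal and sensory area identity, was at 229 CPM in NPCs (224 to 235, 6189 reads) and 175 CPM in neurons (169.7 to 181, 3990 reads), 1.31-fold higher in NPCs (1.26 to 1.36). Nr2f2, which is also known from interneurons of the caudal ganglionic eminence and from veins, was at 34.7 CPM in NPCs (32.5 to 37.0, 937 reads) and 49.6 CPM in neurons (46.8 to 52.6, 1131 reads). It was 1.43-fold higher in neurons (1.31 to 1.56), and 87.2% of genes past the filter had a lower log2 ratio.

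Because Nr2f2 is made by several cell types, markers of other cell types were set beside it. Whether each of those types makes Nr2f2 was not examined. Of 12 interneuron markers, 10 had the higher value in NPCs and 2, Npy and Calb2, in neurons. The counting interval spanned equality for Npy and, among the 10, for Htr3a (NPC to neuron ratio 1.25, 0.924 to 1.70). The 12 markers summed to 335 CPM in NPCs and 241 in neurons, with none at 0. Of the 8 endothelial markers past the filter, 8 of 8 were higher in NPCs, and the 9 markers of that list summed to 44.6 and 13.2 CPM, with none at 0. Calb2, the calretinin gene, which Cajal-Retzius cells make as well, was 3.51-fold higher in neurons (2.20 to 5.76). Of 6 Cajal-Retzius markers, 5 were at least 2-fold higher in neurons (summed level 112 CPM in NPCs and 468 in neurons). Of 6 microglia markers, 5 were too (25.0 and 104 CPM), again with none at 0. The summed interneuron and endothelial levels thus moved opposite to Nr2f2, and those of Cajal-Retzius cells and microglia moved with it. Single genes weighed heavily in 2 of these sums. Reln held 95.8 and 434 CPM of the Cajal-Retzius sum in NPCs and neurons, and Ebf3 in that list went the other way (12.6 and 9.48 CPM). Ephb4 held 26.1 and 11.0 CPM of the endothelial sum. Also opposite were the summed pericyte and meningeal level (206 CPM in NPCs and 10.3 in neurons) and the oligodendrocyte lineage level (76.8 and 2.81 CPM). The Cajal-Retzius and interneuron lists share Calb2. The part of these cell types in the Nr2f2 value was not tested.

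Sp8, which acts with FGF8 at the rostral pole and is also found in interneurons, was at 9.08 CPM in NPCs (7.98 to 10.3, 245 reads) and 4.78 CPM in neurons (3.93 to 5.77, 109 reads). It was 1.898-fold higher in NPCs (1.51 to 2.40), short of 2-fold but with an interval that crossed it. The interneuron list moved the same way, with a median log2 ratio of -0.42. Its part in the Sp8 value was not tested.

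The DM-domain genes were both lower in the neuron library. Dmrta2 (also Dmrt5), needed for the caudomedial cortex, was at 59.4 CPM in NPCs (56.5 to 62.3, 1601 reads) and 24.2 CPM in neurons (22.2 to 26.3, 551 reads), 2.45-fold higher in NPCs (2.23 to 2.71). Dmrta1 (also Dmrt4) had the fewest reads of the set, at 8.12 CPM in NPCs (7.08 to 9.27, 219 reads) and 2.24 CPM in neurons (1.67 to 2.94, 51 reads). Its ratio without an added value, 3.63-fold higher in NPCs (2.66 to 5.02), was the largest in the set, but the interval contained that of Pax6.

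**Figure D2:**
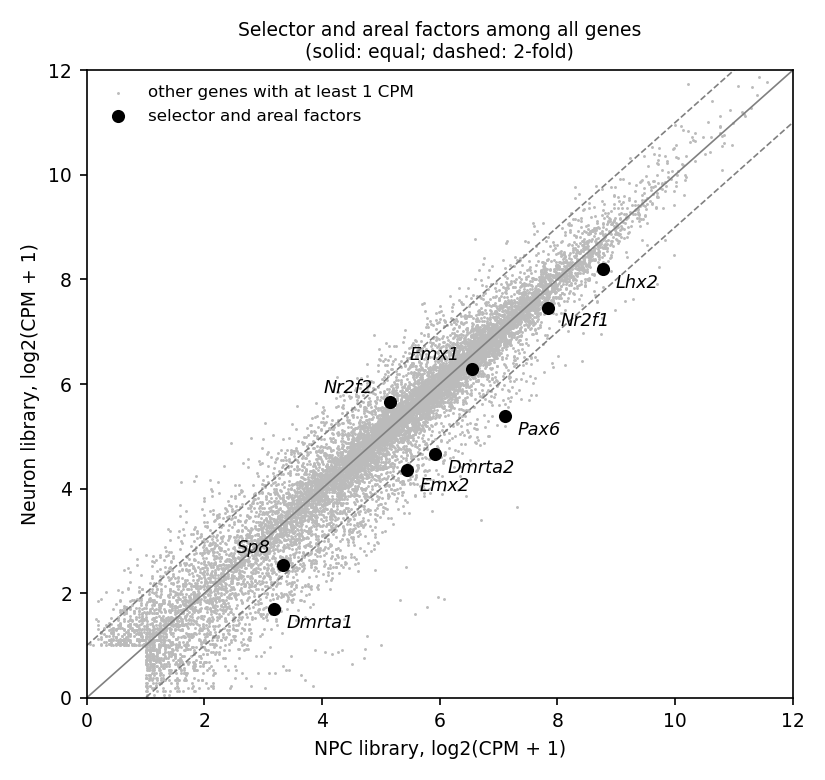
Neuron against NPC level, each as log2(CPM + 1), for all genes past the filter (grey) and the 9 factors (black), with the line of equality and dashed lines at 2-fold. Pax6, Dmrta1, Dmrta2 and Emx2 lie beyond the 2-fold line on the NPC side, and Nr2f2 lies above equality.

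Within each pair of relatives the change of one gene against the other is free of the scaling between libraries. The NPC to neuron fold of Emx2 was 1.84 times that of Emx1 (95% exact interval 1.62 to 2.09), as Emx1 took 68.5% of the reads of the pair in NPCs and 80.0% in neurons. The fold of Nr2f1 was 1.87 times that of Nr2f2 (1.70 to 2.06), with the Nr2f1 share of the reads at 86.9% in NPCs and 77.9% in neurons. The fold of Dmrta1 was 1.48 times that of Dmrta2 (1.07 to 2.08), and Dmrta1 held 12.03% and 8.47% of the reads. Each pair thus shifted by more than counting error, the Dmrt pair least clearly. Sequence shared between genes was counted as well. Of the stretches of 36 bases in the longest coding transcript, 0.914% in Nr2f1 and 1.60% in Nr2f2 also occurred in another gene, and the share was 1.14% or less in each of the other 7. The labels do not state the treatment of reads with several alignments.

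Levels of different genes were compared per kilobase of the longest coding transcript (GENCODE M21, used for lengths only). In the NPC library the order was Lhx2 (154 CPM per kb), Nr2f1 (71.5), Emx1 (59.5), Pax6 (31.1), Dmrta2 (20.3), Emx2 (14.7), Nr2f2 (8.23), Sp8 (2.03) and Dmrta1 (1.99). The counting intervals of Sp8 and Dmrta1 overlapped there, and those of the other neighbours did not. In the neuron library the order was Lhx2 (102.5 CPM per kb), Nr2f1 (54.6), Emx1 (49.5), Nr2f2 (11.8), Pax6 (9.20), Dmrta2 (8.28), Emx2 (6.64), Sp8 (1.07) and Dmrta1 (0.549). Pax6 and Dmrta2 overlapped in that library, and the other neighbours did not. Lhx2, Nr2f1 and Emx1 led in both, and Nr2f2 moved from the seventh to the fourth place while Pax6, Dmrta2 and Emx2 each stood 1 place lower. With the merged length of all annotated exons instead, Pax6, whose merged length is 11.7 kb against 4.43 kb, stood sixth in NPCs and seventh in neurons, and Emx1 stood before Nr2f1 in neurons, so these places rest on the length used. On the merged length Nr2f2 stood at place 7 in NPCs and place 6 in neurons. Dmrta2 stayed at place 4 and Emx2 at place 5 in both libraries. Nr2f2 then read 4.03 and 5.76 CPM per kb in NPCs and neurons, and Lhx2 99.4 and 66.3. Exons of an antisense gene overlapped 8.79% of the merged exons of Emx2, 7.46% of those of Nr2f2 and 2.42% of those of Nr2f1, and without stated strand-specific counting reads there cannot be assigned to 1 of the genes.

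The retention of the 9 factors in the neuron library was set beside markers of the sorted populations, with the level in neurons given as a percent of that in NPCs. Of 8 radial glia and dividing cell markers, 8 of 8 passed 2-fold on the NPC side, and their values ran from 16.7% for Hes1 to 46.4% for Nes. Of 8 neuron markers, 7 were higher in neurons, and Rbfox3 was the exception at 92.7%. Apart from Rbfox3 (interval 87.7% to 98.0%), the markers thus moved in the direction of the cell type labels. Both marker groups were present in both libraries. The 8 neuron markers summed to 5917 CPM in NPCs and 8857 in neurons, and the 8 radial glia markers to 2403 and 818. Dcx, whose reporter defined the neuron gate, read 2522 CPM in NPCs against 3294 in neurons. The part of mixed cells in the percents below was not tested. Dmrta1 (27.6%), Pax6 (29.6%), Dmrta2 (40.7%) and Emx2 (45.3%) lay within the range of the radial glia markers. Sp8 (52.7%), Lhx2 (66.6%), Nr2f1 (76.3%) and Emx1 (83.2%) lay between the radial glia and the neuron markers, and Nr2f2 (142.9%) lay among the neuron markers. The counting intervals of Emx2 (40.5% to 50.6%) and Sp8 (41.6% to 66.3%) both contained the value of Nes, so their sides of that boundary are not settled. Other cell types differed between the libraries as well. Of 8 pericyte and meningeal markers past the filter, 8 passed 2-fold on the NPC side (10 markers summing to 206 and 10.3 CPM), as did 5 of 5 oligodendrocyte lineage markers (76.8 and 2.81 CPM), with none at 0 and Cspg4 in both lists. Their part in the values of the 9 factors was not tested.

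**Figure D3:**
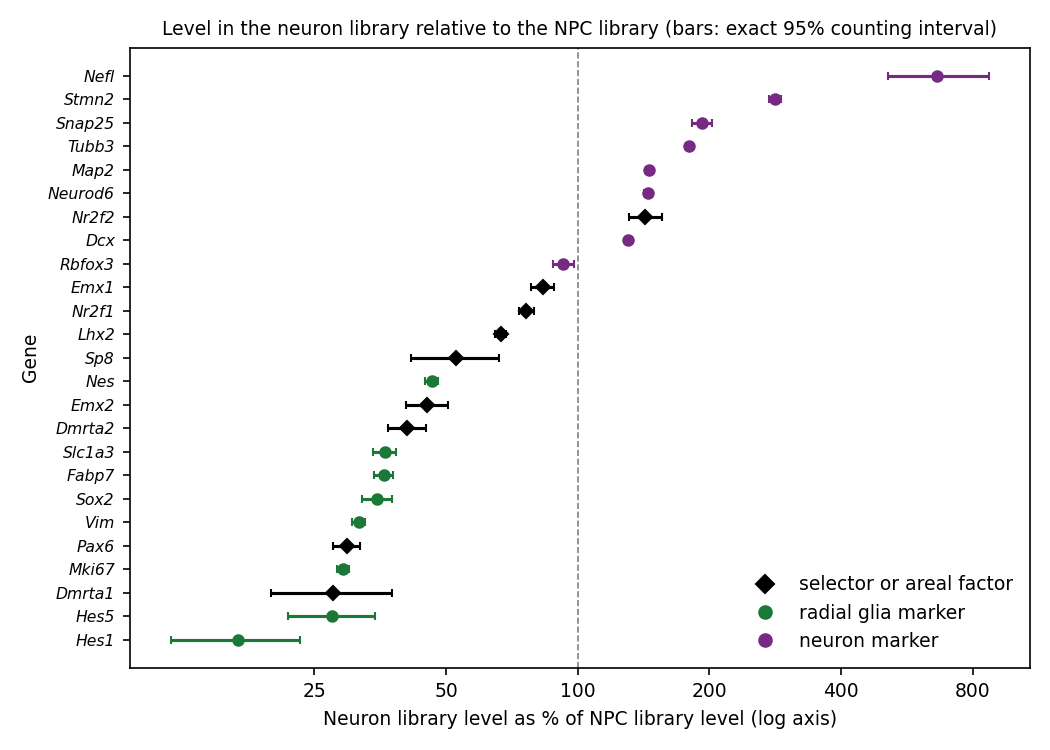
Level in the neuron library as a percent of that in the NPC library (log axis), with exact 95% counting intervals, for the 9 factors (black diamonds), 8 radial glia markers (green) and 8 neuron markers (purple). The factors run from 27.6% for Dmrta1 to 142.9% for Nr2f2 and span the gap between the 2 marker groups.

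Genes that act with or after these factors were examined as lists, counted on the scale with 1 CPM added. Each pair of levels gives NPCs first. All 4 genes listed as Pax6 targets in cortex passed 2-fold on the NPC side (median log2 ratio -1.49). The proneural gene Neurog2 read 502 and 170.0 CPM, a ratio of 2.95 (2.85 to 3.06). Eomes, a factor of intermediate progenitors, read 1013 and 354 CPM, a ratio of 2.87 (2.79 to 2.94). The ratio was 2.78 (2.64 to 2.92) for the lipid-binding protein gene Fabp7 (256 and 92.2 CPM) and 2.78 (2.42 to 3.21) for the Wnt antagonist gene Sfrp2 (32.0 and 11.5 CPM). Pax6 itself had a ratio of 3.38. Fabp7 also stands among the radial glia markers, of which 8 of 8 passed 2-fold on the NPC side too (median log2 ratio -1.57). Whether the listed targets follow Pax6 was not tested.

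The dorsal telencephalic partners split. Of 16 past the filter, 2 passed 2-fold on the NPC side and 1 on the neuron side, 11 had any excess in neurons, and the median log2 ratio was 0.26. Gli3, a Hedgehog pathway repressor that patterns the dorsal telencephalon, read 187 and 54.3 CPM, a 3.45-fold NPC excess (3.24 to 3.67). The homeodomain gene Otx1 read 66.7 and 32.0 CPM, a 2.09-fold NPC excess (1.91 to 2.28). Among the cofactors that LIM-homeodomain proteins such as Lhx2 bind or compete for, Ldb2 read 24.4 and 68.3 CPM, a 2.80-fold neuron excess (2.55 to 3.07). The LIM-only gene Lmo1 read 32.1 and 55.7 CPM, a 1.73-fold neuron excess (1.59 to 1.89). Ldb1 had the highest level of these cofactors and was close to equal, at 321 and 335 CPM (1.05-fold neuron excess, 1.01 to 1.08). The neuron excess was 2.12-fold for Lmo2 (1.40 to 3.24) on 1.41 and 2.99 CPM. It was 1.27-fold for Lmo4 (1.17 to 1.38) and 1.09-fold for Lmo3, whose interval spanned equality (0.99 to 1.21).

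Relatives of the 9 factors in the same protein families were mostly low or close to equal. Of 33 such genes, 16 passed the filter and 13 had at most 3 reads in each library. On the NPC side 1 of the 16 passed 2-fold, and on the neuron side 2 did (median log2 ratio -0.20). Nr2e1 (Tlx), a nuclear receptor of neural stem cells, read 99.9 and 29.5 CPM, a 3.39-fold NPC excess (3.12 to 3.70) beside 3.38-fold for Pax6. Lhx5 and Lhx1, also in the Cajal-Retzius list, were the 2 on the neuron side. Lhx5 read 0.259 and 3.07 CPM (ratio 11.8, 5.45 to 30.5), and Lhx1 read 0.148 and 1.76 CPM on 4 and 40 reads (ratio 11.9, 4.28 to 45.6). Lhx9, the closest relative of Lhx2, read 9.34 and 5.27 CPM, a 1.77-fold NPC excess (1.42 to 2.22). Dmrt3, which shares cortical expression with the Dmrta genes (picked with its value known), read 8.38 and 4.74 CPM, a 1.77-fold NPC excess (1.40 to 2.24). Of the 8 other Pax genes, 6 had 0 reads in both libraries, and the highest, Pax4, read 0.296 and 0.22 CPM.

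Genes of the signalling centres that set the gradients were examined next. In the FGF list 10 of 12 passed the filter, 4 of them beyond 2-fold on the NPC side and 0 on the neuron side (median log2 ratio -0.44). Etv4, Etv1 and Etv5, transcription factors that FGF signalling induces, had NPC to neuron ratios of 3.93 (2.56 to 6.26), 3.08 (2.58 to 3.68) and 2.40 (2.17 to 2.64). The receptor gene Fgfr3 read 117 and 47.7 CPM, a ratio of 2.46 (2.30 to 2.64). Fgf8, the rostral ligand with which Sp8 acts (picked with its value known), had 1 read in NPCs and 0 in neurons. For a count of 0 the limit was set at 3 reads, which is 0.132 CPM in neurons, and the exact interval used for levels ends at 0.162 CPM there. In the cortical hem list 5 of 13 passed the filter and 6 had at most 3 reads in each library. The ligand gene Bmp7 read 2.26 and 0.395 CPM, a 5.72-fold NPC excess (2.83 to 13.1), and it alone passed 2-fold in that list. The Wnt target gene Axin2 read 26.7 and 20.9 CPM (ratio 1.28, 1.14 to 1.44). For the Wnt effector gene Lef1 (ratio 1.203, 0.924 to 1.57) and the ligand gene Wnt2b (ratio 1.06, 0.792 to 1.42) the interval spanned equality. Of 4 antihem genes past the filter, Sfrp2 was above 2-fold on the NPC side, and Nrg3, for a neuregulin, read 11.6 and 28.6 CPM, a 2.46-fold neuron excess (2.15 to 2.83). Nrg1 and Tgfa, which encode ligands of the EGF family, had NPC to neuron ratios of 1.59 (1.37 to 1.83) and 1.38 (1.17 to 1.62).

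Genes that mark areas within postmitotic cortical neurons, downstream in time of the progenitor gradients, were split. All 11 passed the filter, 7 with the higher value in neurons and 4 in NPCs (Cdh6, Cdh8, Efna5 and Epha7), where 50.7% of all genes were higher in NPCs. The counting interval of the NPC to neuron ratio spanned equality for Epha7 (1.05, 0.988 to 1.12). It also did for Lmo3 (0.914, 0.828 to 1.01), counted as higher in neurons. Of the 11, 2 lay beyond 2-fold on the neuron side and 0 on the NPC side, around a median log2 ratio of 0.25. Bhlhe22, a factor of area identity in neurons, read 106 and 312 CPM, a 2.96-fold neuron excess (2.83 to 3.09). Id2, an inhibitor of helix-loop-helix factors, read 138 and 299 CPM, a 2.17-fold neuron excess (2.08 to 2.26). The cadherin gene Cdh6 lay on the NPC side at 20.2 and 11.3 CPM (ratio 1.78, 1.54 to 2.08). Tshz2 read 3.82 and 6.10 CPM, a 1.60-fold neuron excess (1.23 to 2.08). Factors of the ventral telencephalon, whose programme Pax6 restrains in the cortex, had an NPC excess in 7 of the 7 past the filter, beyond 2-fold in 3 (median log2 ratio -0.86). Olig2, which is also in the oligodendrocyte lineage list, read 7.60 and 0.395 CPM (ratio 19.2, 9.94 to 42.7). Dlx6 read 2.15 and 0.439 CPM (ratio 4.89, 2.48 to 10.8), and Gsx2, with its ratio of 4.11 (1.897 to 10.2) on 39 and 8 reads, stayed short of 2-fold once 1 CPM was added. The Dlx genes of this list overlap the interneuron markers.

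**Figure D4:**
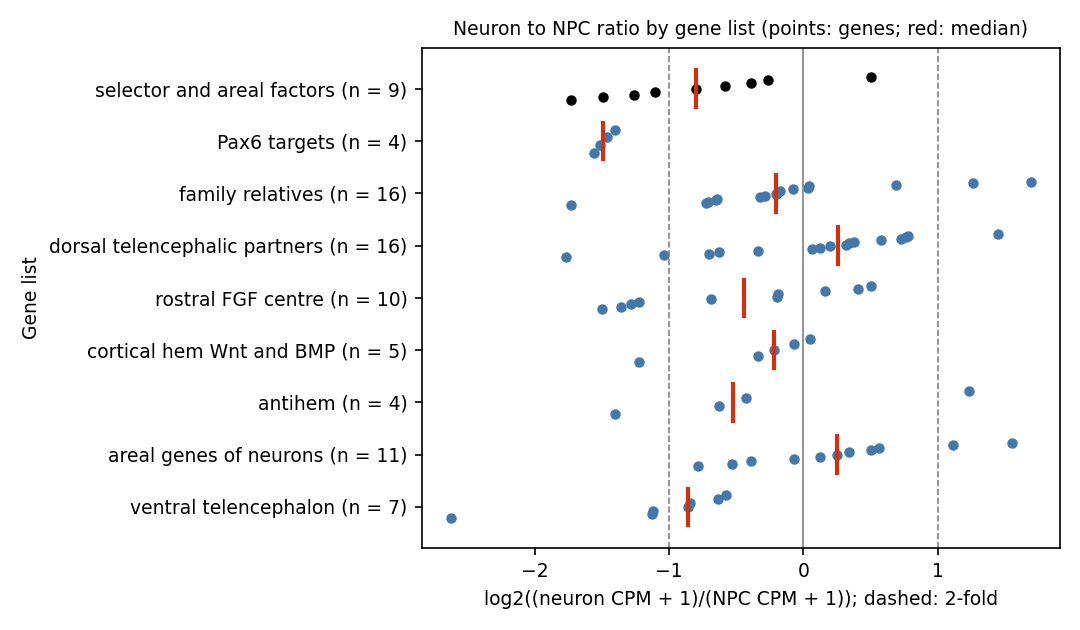
Log2 ratio of neuron to NPC, with 1 CPM added to both values, for each gene past the filter (points) in the 9 factors (black) and 8 lists of related genes (blue), with the median in red and dashed lines at 2-fold. The 9 factors spread from -1.73 to 0.50 around a median of -0.80, the 4 Pax6 targets sit together near -1.49, and the partners and the areal genes of neurons have medians above 0.

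For each factor the gene with the nearest pair of levels was found by Euclidean distance in log2(CPM + 1) over the 2 libraries among 11964 other genes past the filter, leaving out predicted and small RNA symbols (those starting with Gm and a digit, LOC, Mir or Snor, or ending in Rik). With 2 libraries, such likeness holds a level and a ratio and no more. The nearest gene to Dmrta2 was Etv5 (distance 0.024), to Pax6 Myo10 (0.064), to Emx2 Abhd4 (0.055), to Lhx2 Coro1c (0.082) and to Dmrta1 Col14a1 (0.042). Pfas lay nearest to Emx1 (0.0098), Mapk1ip1l to Nr2f1 (0.031), Tbkbp1 to Nr2f2 (0.037) and Emid1 to Sp8 (0.027). Within a distance of 0.1 there were 30 genes for Emx1, in the crowded centre of the distribution, and 2 each for Pax6 and Lhx2.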

How the data were processed

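RNA was measured by sequencing in 1 NPC and 1 neuron library, grouped by the labelled cell type. The submitters' processing notes list mm9, TopHat 1.2.0, CASAVA 1.9, SAMtools 0.1.18 and edgeR. Annotation and strand use: not given in the sources used here. The authors deposited a signal that is never negative. Its values step by a fixed amount per library (0.953 for NPCs, 1.13 for neurons), as rescaled read counts do, and after division by that amount 100% lay within 0.05 of a whole read (values under 0.01 taken as 0).

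For CPM, both libraries were divided by 1 constant, the mean of their 2 sums. The plan had assumed that the files held CPM. Genes reaching 1 CPM in either library entered log2((neuron + 1)/(NPC + 1)), a scale that compresses differences of low genes. Folds of single genes are CPM ratios with nothing added and carry Clopper-Pearson intervals converted to ratios. Levels carry exact Poisson intervals, and pairs exact conditional odds ratio intervals (scipy 1.17.1). All intervals are at 95%. TMM factors came from edgeR 4.0.16 in R 4.3.3. The calculations were tested on simulated data.

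The members and lists were chosen with earlier results of these data known. All 9 members are named, and of each related list up to 4 genes past the filter with the largest absolute log2 ratio. Of the markers, Npy, Htr3a, Reln, Ebf3, Ephb4, Nes, Rbfox3, Dcx and Cspg4 are named beside results with their values known. The same holds for Pax4, Cdh8, Efna5, Epha7, Ldb1, Lmo2, Lmo3 and Lmo4. Map2 was matched through a RefSeq synonym, and Nkx6-2 was not analysed here. Of the genes this rule names, 1 is not reported here. Promoter sequences matched 9 of 9 members.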

Additional observations from a re-analysis of the deposited data

How the results depend on the processing

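With 1 library per group, no replicate could be left out. Only counting error was measured, on 51 reads for Dmrta1 in neurons to 11781 for Lhx2 in NPCs. Variation between embryos and sorts was not measured, so the intervals are a lower bound on the uncertainty. Scaling by total reads, TMM or upper quartiles, an added value of 0.1 CPM, a minimum of 10 CPM and no minimum were tried. No added value was tried after seeing the data. These gave 3 or 4 members at least 2-fold higher in NPCs, 0 in neurons and median log2 ratios from -0.92 to -0.58. The 3 and the -0.58 came with the minimum of 10 CPM, where Sp8 and Dmrta1 dropped out and 7 members remained. There 5.51% of all genes passed 2-fold on the NPC side. The other settings kept all 9 members, and that share ran from 4.19% (no minimum) to 9.03% (no added value). With 5 CPM added 2 of 9 members passed, against 3.14% of all genes. Of 54 member log2 ratios under the 6 alternatives of scaling and added value, 0 changed direction. With 5 CPM added, which shrinks ratios of low genes by construction, Dmrta1 came to -0.86, Sp8 to -0.53, Emx2 to -0.97, Dmrta2 to -1.14 and Pax6 to -1.64, all smaller than the interval of the ratio without an added value allows. Scaling by total reads gave -0.65 for Lhx2 and -0.45 for Nr2f1. Their NPC to neuron folds were then 1.57 and 1.37, beyond the upper ends of their counting intervals (1.55 and 1.36). Scaling by total reads also moved the median of all genes from -0.0049 to -0.069. Levels per kb depend on the length used, also chosen after seeing the data, most for Pax6 (31.1 and 11.8 CPM per kb in NPCs). No paired analysis was possible because each group has a single library.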
